A study of Mus musculus with 4 samples.

Results

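The stefin A cluster of mouse chromosome 16 was followed here through 5 genes, Stfa1, Stfa2, Stfa3, Stfa2l1 and BC100530, out of 24497 mouse genes in the expression table. The genes were chosen by their values in the comparison described below, where they stood among the largest rises, so their difference between the groups is given as a description without a test. All 5 passed the filter on low values used for the other genes. RNA was sequenced from leukaemic cells of mice, in 2 libraries labelled Tet2 KO and 2 labelled WT. In both groups, bone marrow stem cells had been turned leukaemic with NRAS, an activated RAS gene in this kind of model, and AE9a, a truncated form of the AML1-ETO fusion. Both were cultured with SCF, IL-3 and IL-6 under G418 and puromycin, and both were transplanted into CD45.1 recipients aged 6 to 8 weeks that had received 900 cGy. Spleen cells with CD45.2, the donor variant of CD45, were enriched before RNA was taken. The stated difference between the groups is the genotype of the donor, Tet2-/- for the Tet2 KO libraries and wild type for the WT libraries. Nothing states that the replicates are different animals, and CD45.2 enrichment does not separate leukaemic cells from other cells of donor origin.

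Stefins are small inhibitors of papain-like cysteine proteases. They lack a secretion signal, act mainly in the cytosol, and bind into the active-site cleft of cathepsins such as B, H, L and S. Humans carry a single stefin A gene, CSTA, known from skin and myeloid cells, whereas the mouse has a tandem array of copies, whose transcripts are known from neutrophils and their precursors.

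The 5 genes lay within 299 kb (mm10, chromosome 16, 36156811 to 36455392). Stfa2l1 (36156811 to 36161953) and Stfa1 (36276951 to 36285373) are on the plus strand. BC100530 (36359382 to 36367748), Stfa2 (36403992 to 36408457) and Stfa3 (36450537 to 36455392) are on the minus strand. Each has 3 exons, with transcripts of 412 to 619 nt. The proteins translated from GENCODE transcripts had 103 residues for Stfa2, Stfa3 and Stfa2l1, 97 for BC100530, and 128 for the longest annotated form of Stfa1. Every one of the 5 held the cystatin signature glutamine, any residue, valine, any residue, glycine, which forms a loop that enters the protease cleft. Identity between members over aligned residues had a median of 68.6% and ran from 61.9% to 95.1% in 10 pairs. Stfa2 and Stfa2l1 were the closest pair at 95.1%, and Stfa1 and BC100530 followed at 94.8%. Stfa3 had no such partner, with 68.0% to 70.1% identity to the other members. Identity of members to stefin B, encoded by Cstb on chromosome 10, was 45.8% to 49.5%.

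The promoters of the members resembled each other and are shown because all 5 genes were high in the same libraries. Over the 250 bases before the RefSeq start (GRCm38.p6), identity between members ran from 81.8% for Stfa2 with Stfa3 to 96.1% for Stfa1 with BC100530. The sequences below are those of the 2 members whose RefSeq and GENCODE starts coincide, followed by Gm5483 (Cstdc4 in RefSeq), a neighbouring stefin gene described further on, for which they coincide too. Capitals mark TTTAAA, a variant of the TATA box letters.
Stfa3, chr16:36455393-36455642, minus strand: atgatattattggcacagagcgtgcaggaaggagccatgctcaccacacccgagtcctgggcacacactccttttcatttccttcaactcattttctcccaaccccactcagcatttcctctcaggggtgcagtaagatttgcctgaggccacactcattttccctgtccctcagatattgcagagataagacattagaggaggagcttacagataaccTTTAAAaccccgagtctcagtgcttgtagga
Stfa2l1, chr16:36156561-36156810, plus strand: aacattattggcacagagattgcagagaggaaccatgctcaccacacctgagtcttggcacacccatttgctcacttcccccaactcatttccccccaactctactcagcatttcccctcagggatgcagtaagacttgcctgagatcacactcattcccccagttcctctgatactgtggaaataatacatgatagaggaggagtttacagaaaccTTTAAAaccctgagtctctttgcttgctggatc
Gm5483, chr16:36183962-36184211, plus strand: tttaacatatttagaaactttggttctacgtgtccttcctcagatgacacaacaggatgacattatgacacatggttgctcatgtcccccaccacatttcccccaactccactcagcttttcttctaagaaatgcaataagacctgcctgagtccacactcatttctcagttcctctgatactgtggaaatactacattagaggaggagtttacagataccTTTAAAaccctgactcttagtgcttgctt

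TTTAAA was found in all 5 member promoters. It began at position -29 to -33 from the RefSeq start in Stfa1, Stfa2, Stfa3 and Stfa2l1, and at position -9 in BC100530. The GENCODE start lies farther upstream, by 197 bases in Stfa1, 178 in BC100530 and 94 in Stfa2. By GENCODE, TTTAAA thus lies after the start in these genes. TTTAAA occurs in 12.1% of 32851 RefSeq promoter windows of the same length, and was added to the search after the sequences were seen. The canonical letters TATAAA, found in 12.4% of windows, were in 0 of 5. Of motifs of myeloid factors, searched on both strands, the C/EBP letters TTNNGNAA were in 4 of 5 (36.8% of all windows), and those of RUNX factors, TGNGGT, in 5 of 5 (40.1%). The PU.1 letters GAGGAAG were in 2 of 5 (10.6%) and GGAAGT in 2 of 5 (19.7%). The STAT letters TTCNNNGAA (7.02%), the AP-1 letters TGANTCA (6.75%) and the interferon-stimulated response element (2.98%) were in 0 of 5. Likeness of these windows did not go with the level in every gene of the locus, but the windows do not all cover matching stretches. The window of Csta1, which was near 0 in all libraries, was 80.1% to 84.6% identical to those of the members over 156 to 182 aligned bases. It held TTTAAA at position -230. Its RefSeq and GENCODE starts lie 52 bases apart, and its last bases match a stretch that lies upstream of TTTAAA in the members. The part of Csta1 that matches the members' TTTAAA was thus not compared. The window of 2010005H15Rik, which was high in the same libraries as the members, was 53.8% to 60.4% identical to theirs and held no TTTAAA. Its RefSeq and GENCODE starts lie 94 bases apart. The member windows are related by descent, so these counts are not independent of each other.

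Levels are in TPM, transcript abundance per length scaled to a fixed total per library, so members can be set against each other. Stfa1 stood at 10728 and 11497 TPM in the Tet2 KO-labelled libraries, against 39.2 and 41.5 TPM in the WT libraries. BC100530 stood at 9739 and 9606 TPM in the Tet2 KO-labelled libraries, against 41.4 and 44.2 TPM in WT. Stfa2l1 stood at 7572 and 7497 TPM in the Tet2 KO-labelled libraries, against 34.8 and 28.1 TPM in WT. Since the members were chosen by this difference, the gap between the groups is a description only. Stfa2 stood at 6551 and 5800 TPM in the Tet2 KO-labelled libraries, against 28.9 and 22.4 TPM in WT. Stfa3, the lowest member, stood at 4309 and 3992 TPM in the Tet2 KO-labelled libraries, against 12.1 and 15.8 TPM in WT. All 5 members were thus expressed in WT cells at a modest level and were among the most abundant transcripts of the Tet2 KO-labelled libraries. Their ranks among all mouse genes ran from 4 to 20 in the Tet2 KO-labelled libraries and from 3607 to 7488 in WT.

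**Figure D1:**
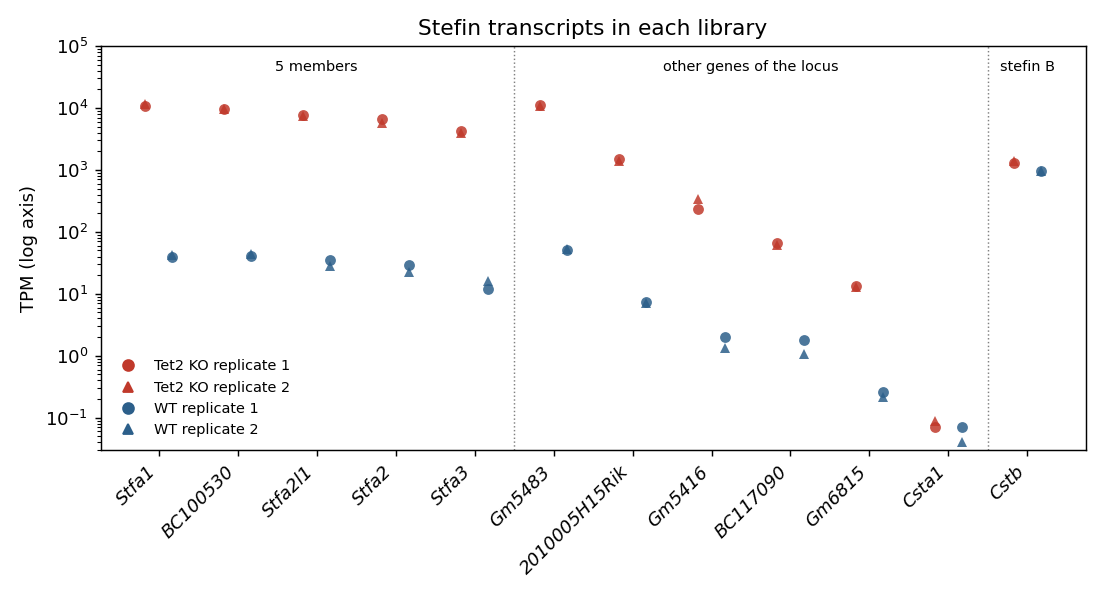
TPM (log axis) of the 5 stefin A members, the other stefin genes of the locus and stefin B (Cstb) in each library, with Tet2 KO libraries in red left of WT libraries in blue; each symbol is 1 library. The 5 members lie at 3992 to 11497 TPM in the Tet2 KO-labelled libraries and at 12.1 to 44.2 TPM in WT, while Csta1 lies at or under 0.09 TPM in all 4.

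As ratios of mean TPM, Tet2 KO over WT, Stfa3 was 297-fold higher, Stfa1 275-fold, Stfa2 241-fold, Stfa2l1 239-fold and BC100530 226-fold. On the log2(TPM + 1) scale the differences were 7.79 for BC100530 to 8.11 for Stfa3, with SDs of 0.010 to 0.124 over the 2 Tet2 KO libraries. They ranked from the second to the sixth largest rise among all tested genes, after Retnla. The next below them was Gm5483, at 7.69. The near-identical copies were also summed, since reads of a shared stretch can be assigned to either gene. Stfa1 and BC100530 together stood at 20467 and 21103 TPM in the Tet2 KO-labelled libraries, against 80.6 and 85.7 TPM in WT, a 250-fold difference. Stfa2 and Stfa2l1 together stood at 14123 and 13298 TPM in the Tet2 KO-labelled libraries, against 63.7 and 50.5 TPM in WT, a 240-fold difference. Both pair sums and Stfa3 alone therefore gave folds of 240 to 297. The sum of all 5 was 38646 ± 358 TPM in the Tet2 KO-labelled libraries (SD, n = 2) and 154 TPM in WT (mean of both libraries), which is 251-fold. It took 3.89% and 3.84% of all TPM in the Tet2 KO-labelled libraries, against 0.0156% and 0.0152% in WT.

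How far reads can tell the copies apart was measured on the GENCODE transcripts. No 50-base window of Stfa3 occurred in another gene's transcripts. The share of such windows was 84.1% for Stfa2, 75.4% for Stfa2l1, 73.1% for Stfa1 and 66.5% for BC100530. With 100-base windows every one was unique for Stfa3, Stfa2 and Stfa2l1, and the shares were 94.4% for Stfa1 and 86.9% for BC100530. Stfa1 and BC100530 shared 50-base windows with each other and with BC117090, and BC100530 also with Csta1. Stfa2 and Stfa2l1 shared them with each other and with the pseudogene Gm49652, and Stfa2 also with the pseudogene Gm4758. Each member thus had sequence of its own, but the sources do not state the read length. BC100530 is also overlapped on the opposite strand by the antisense gene Gm15845; the kit was stranded per the labels, but the strand setting of the counting is unstated, so reads of the pair may not be told apart.

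The make-up of the cluster total differed by a few percentage points between groups. Stfa1 supplied 27.6% and 29.9% of it in the Tet2 KO-labelled libraries, against 25.1% and 27.3% in WT. BC100530 supplied 25.0% and 25.0% in the Tet2 KO-labelled libraries, against 26.5% and 29.0% in WT. Stfa2l1 supplied 19.5% and 19.5% in the Tet2 KO-labelled libraries, against 22.3% and 18.5% in WT. The shares overlapped between groups for Stfa2l1. They did not for Stfa1 or BC100530, whose mean shares differed by 2.58 and -2.74 percentage points (Tet2 KO minus WT). The nearest Stfa1 shares were 27.3% in WT and 27.6% in Tet2 KO, and how often 2 libraries per group do not overlap was not counted. Reads of this near-identical pair can be assigned to either gene. Summed, the pair was 250-fold higher, beside 251-fold for all 5 members. Stfa2 supplied 16.8% and 15.1% in the Tet2 KO-labelled libraries, against 18.5% and 14.7% in WT. Stfa3 supplied 11.1% and 10.4% in the Tet2 KO-labelled libraries, against 7.75% and 10.4% in WT. The Stfa2 shares overlapped, and those of Stfa3 met at 10.4%. By TPM, the order in both Tet2 KO-labelled libraries was Stfa1, BC100530, Stfa2l1, Stfa2 and Stfa3, and no neighbours in it overlapped. In WT BC100530 stood above Stfa1 in each library, although their ranges overlapped, as did those of Stfa2l1 and Stfa2, and Stfa3 was again lowest.

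**Figure D2:**
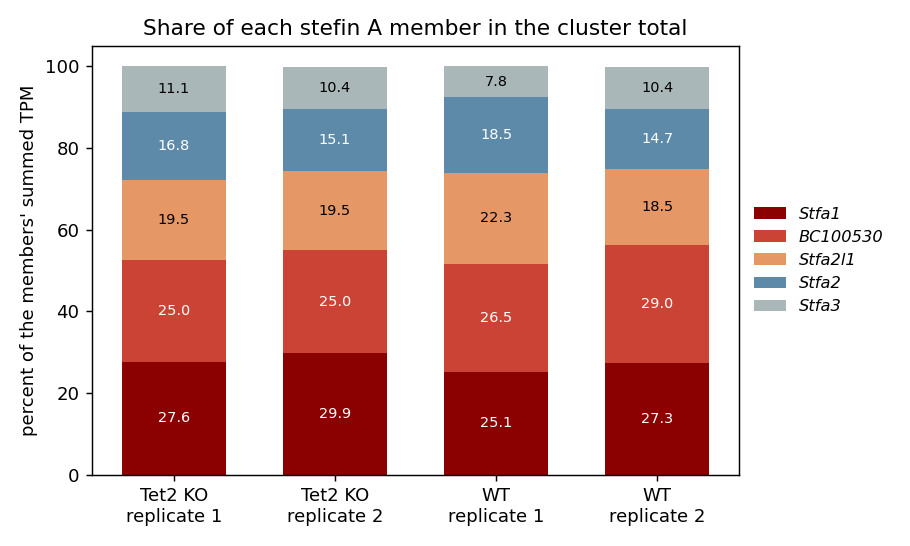
Share of each member in the summed TPM of the 5 members (percent, stacked to 100) in each library, Tet2 KO libraries left and WT libraries right. Stfa1 and BC100530 take the largest shares of each bar, and Stfa3 takes 10.4% and 11.1% in the Tet2 KO-labelled libraries and 7.75% and 10.4% in WT.

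The ratio between the 2 Tet2 KO-labelled libraries was small. It was not the measure by which the genes were chosen, but the choice used both libraries, so the ratio is not fully independent of it. Members that share sequence windows are also not separate observations. The log2 ratio of Tet2 KO replicate 1 over replicate 2 was -0.10 for Stfa1, 0.01 for Stfa2l1, 0.02 for BC100530, 0.11 for Stfa3 and 0.18 for Stfa2. The median absolute ratio was 0.10 over the 5 members and 0.25 over the 99 mouse genes with at least 1000 TPM in both libraries. For 16 neutrophil markers the ratio ran from -0.35 to 1.37, with a median of 0.35. Ngp, a secondary granule protein, stood at 8169 and 5239 TPM, Ltf, which encodes lactoferrin, at 575 and 328 TPM and Csf3r, the G-CSF receptor, at 365 and 216 TPM in the same 2 libraries. These 3 markers, picked after values were seen, differed between the Tet2 KO-labelled libraries more than any stefin member did. Among the 16 markers, only Lcn2, another granule gene, with a ratio of 0.10, and S100a9, with 0.17, lay within the range of the stefins. Camp and Mmp8 lay just above it at 0.19 each, and the remaining markers differed more, in either direction. Mpo (203 and 253 TPM) and Elane (33.9 and 43.1 TPM) were lower in replicate 1. No test was made on the difference between the 2 Tet2 KO-labelled libraries, since 2 libraries allow none. In WT the log2 ratio of replicate 1 over replicate 2 was -0.08 for Stfa1, -0.09 for BC100530, 0.31 for Stfa2l1, 0.36 for Stfa2 and -0.38 for Stfa3, at levels of 44.2 TPM or less, so that 3 members differed more between the WT libraries than any did between the Tet2 KO-labelled ones.

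**Figure D3:**
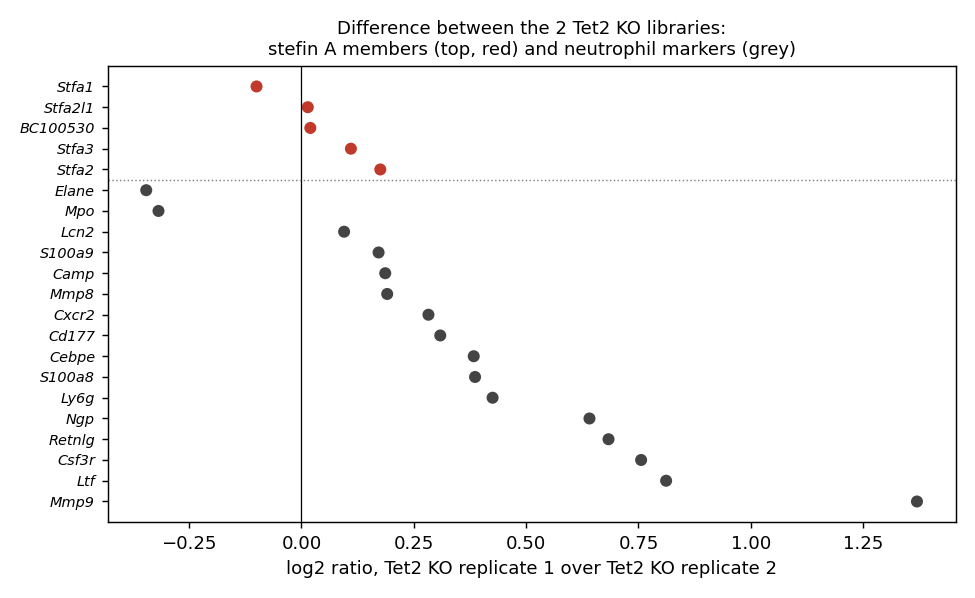
Log2 ratio of Tet2 KO replicate 1 over Tet2 KO replicate 2 for the 5 stefin A members (red, top) and 16 neutrophil markers (grey, below); each point is 1 gene. The members lie between -0.10 and 0.18 and the markers between -0.35 and 1.37.

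Other stefin genes inside the same interval were high in the same libraries. Gm5483 (chromosome 16, 36184212 to 36188111) stood at 11162 and 10880 TPM in the Tet2 KO-labelled libraries, against 51.1 and 53.8 TPM in WT, a level as high as that of Stfa1. 2010005H15Rik (36221468 to 36257444), whose protein is 96.9% identical to that of Gm5483, stood at 1490 and 1376 TPM in the Tet2 KO-labelled libraries, against 7.30 and 7.23 TPM in WT. Gm5416 (36210403 to 36217788) stood at 231 and 335 TPM in the Tet2 KO-labelled libraries, against 2.04 and 1.35 TPM in WT. These 3 genes followed the members in direction, at widely differing levels. BC117090, 93.8% identical in protein to BC100530, stood at 67.2 and 60.8 TPM in the Tet2 KO-labelled libraries, against 1.79 and 1.05 TPM in WT. The pseudogene Gm6815 stood at 13.6 and 12.8 TPM in the Tet2 KO-labelled libraries, against 0.26 and 0.22 TPM in WT. Gm5483 and 2010005H15Rik shared windows with each other and BC117090 with Stfa1 and BC100530, whereas every 50-base window of Gm5416 was its own; Gm6815 was not examined. With the 4 protein-coding ones added, the cluster took 5.18% and 5.10% of all TPM in the Tet2 KO-labelled libraries, against 0.0219% and 0.0216% in WT. Csta1, the stefin gene 25570 bases beyond Stfa2l1, lies outside the interval. It stood at 0.07 and 0.09 TPM in the Tet2 KO-labelled libraries, against 0.07 and 0.04 TPM in WT, although its protein is 67.0% to 71.1% identical to those of the members.

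The genes around the cluster were tested with limma on log2(TPM + 1) with Benjamini-Hochberg adjustment over all 11919 tested genes, of which 22.1% were higher and 26.7% lower in the Tet2 KO-labelled libraries at an adjusted p under 0.05. Within 1 Mb of the member interval, 24 non-member genes were tested, of which 7 were higher and 7 lower, with a median log2 change of -0.02 against -0.12 for all genes. The 5 tested genes inside the interval are the stefin genes just described. Of these Gm6815 passed the filter only through the Tet2 KO-labelled libraries, and the other 4 were higher, of which Gm5416 was not called without the filter (adjusted p = 0.068). Outside it, 2 of 19 were higher and 7 lower. The count of higher genes there was 0 without the filter, 4 with both WT libraries as samples and 7 with ERCC scaling. The counts of 4 and 7 include Slc15a2, which passed the filter only through the Tet2 KO-labelled libraries. Steep falls lay 184206 to 285267 bases from the member interval. Parp14, an ADP-ribosyltransferase of the interferon response, stood at 13.5 and 14.1 TPM in the Tet2 KO-labelled libraries, against 506 and 515 TPM in WT, and fell by 5.11 ± 0.19 on the log2 scale (SE, adjusted p = 8.59e-12). Dtx3l, a ubiquitin ligase, fell by 3.82 ± 0.19 (adjusted p = 2.04e-10), and Parp9, its binding partner, fell by 3.45 ± 0.20 (adjusted p = 9.85e-10).

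Between these and the cluster, and beyond Stfa3, changes were smaller. On the Csta1 side, Ccdc58 and Wdr5b did not pass (log2 changes of -0.61 and 0.28, adjusted p = 0.0813 and 0.457), nor did Kpna1, an importin (0.27, adjusted p = 0.257). Fam162a stood at 65.1 and 81.9 TPM in the Tet2 KO-labelled libraries, against 49.4 and 48.2 TPM in WT, and rose by 0.57 ± 0.20 (adjusted p = 0.0271), which did not pass under limma with neither trend nor robust estimation (adjusted p = 0.104). Farther out, Dirc2, a lysosomal membrane transporter, rose by 1.81 ± 0.20 (adjusted p = 1.64e-06). On the Stfa3 side the nearest gene, the calcium-sensing receptor gene Casr, stood at or under 0.08 TPM in each library, and Ildr1 and Eaf2 were under 1 TPM. Cd86, a T cell costimulatory ligand, stood at 35.7 and 48.4 TPM in the Tet2 KO-labelled libraries, against 104 and 102 TPM in WT, and fell by 1.29 ± 0.21 (adjusted p = 0.000171). Fbxo40 stood at 0.04 and 0.07 TPM in the Tet2 KO-labelled libraries, against 3.27 and 3.25 TPM in WT, and passed the filter only through WT. The peptide transporter gene Slc15a2 stood at 5.69 and 1.87 TPM in the Tet2 KO-labelled libraries, against 0.25 and 0.11 TPM in WT, and did not pass (log2 change 1.89, adjusted p = 0.0610). Ccdc58 and Kpna1 passed with both WT libraries as samples (adjusted p = 0.0141 and 0.0238). So did Slc15a2 (adjusted p = 0.0162), but it had passed the filter only through the Tet2 KO-labelled libraries, which favours a call as higher.

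**Figure D4:**
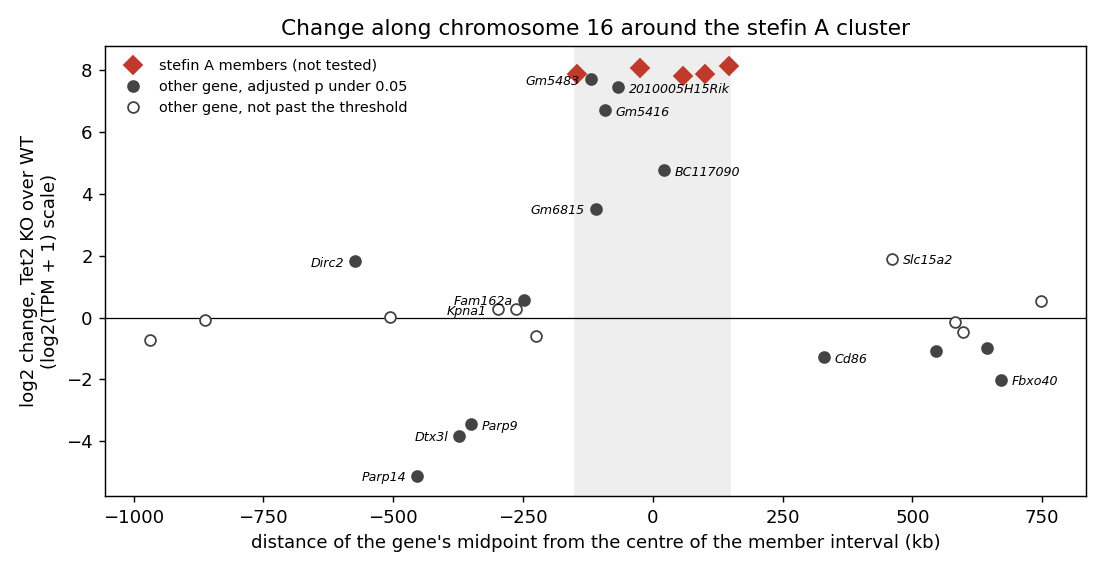
Log2 change, Tet2 KO over WT on the log2(TPM + 1) scale, of each gene by its distance in kb from the centre of the member interval (grey band); diamonds are the 5 members, filled circles other genes with an adjusted p under 0.05 and open circles tested genes that did not pass. The members lie at 7.79 to 8.11 and the other genes of the band at 3.51 to 7.69, while Parp14, Dtx3l and Parp9 lie at -5.11 to -3.45.

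The proteases that stefins bind mostly moved the other way. Of 10 cysteine cathepsins, 8 were tested, of which 6 fell and 2 rose, where 26.7% of all tested genes were lower and 22.1% higher. Their median log2 change was -1.29, against -0.12 for all genes. Markers of monocytes and macrophages, cells rich in cathepsins, were lower in the same libraries: of 14, a list added after the data were seen, 10 fell and 0 rose, with sums of 2698 and 2794 TPM in the Tet2 KO-labelled libraries, against 5180 and 5175 TPM in WT. Among them, Csf1r stood at 170 and 142 TPM in the Tet2 KO-labelled libraries, against 721 and 730 TPM in WT, and the complement gene C1qa at 19.7 and 23.3 TPM in the Tet2 KO-labelled libraries, against 163 and 160 TPM in WT, while Ly6c2 did not pass at 1042 and 1099 TPM in the Tet2 KO-labelled libraries, against 1006 and 1005 TPM in WT. The part of these cells in the cathepsin values was not tested. Ctss, which cleaves the class II invariant chain, stood at 334 and 420 TPM in the Tet2 KO-labelled libraries, against 1369 and 1373 TPM in WT, and fell by 1.87 ± 0.26 (adjusted p = 2.31e-05). Ctsh, an aminopeptidase, stood at 62.9 and 82.6 TPM in the Tet2 KO-labelled libraries, against 566 and 569 TPM in WT, and fell by 2.96 ± 0.22 (adjusted p = 4.59e-08). Both genes were lower in each Tet2 KO library than in either WT library, but the share of all genes for which this held was not counted. Ctsc, which activates granule serine proteases, fell by 1.67 ± 0.21 (adjusted p = 8.28e-06), and Ctso fell by 1.55 ± 0.31 (adjusted p = 0.000660), with 3.11 and 3.80 TPM in the Tet2 KO-labelled libraries, against 12.6 and 11.4 TPM in WT. Ctsb stood at 551 and 535 TPM in the Tet2 KO-labelled libraries, against 1106 and 1108 TPM in WT, and fell by 1.03 ± 0.26 (adjusted p = 0.00373). Ctsz, a carboxypeptidase, stood at 905 and 842 TPM in the Tet2 KO-labelled libraries, against 1547 and 1553 TPM in WT, and fell by 0.83 ± 0.27 (adjusted p = 0.020). Neither of these last 2 passed with ERCC scaling (adjusted p = 0.172 and 0.468), and Ctsz did not with median centring (adjusted p = 0.0533).

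Ctsl, an endopeptidase and strong stefin target, stood at 147 and 142 TPM in the Tet2 KO-labelled libraries, against 74.9 and 75.6 TPM in WT, and rose by 0.93 ± 0.20 (adjusted p = 0.00114). Ctsk, the collagenase of osteoclasts, stood at 44.6 and 19.6 TPM in the Tet2 KO-labelled libraries, against 1.95 and 3.09 TPM in WT, and rose by 3.12 ± 0.54 (adjusted p = 0.0103), with a wide gap between the Tet2 KO libraries. Ctsf and Ctsw stayed under 1 TPM in each library and were not tested. The 10 cathepsins summed to 2113 and 2127 TPM in the Tet2 KO-labelled libraries, against 4907 and 4927 TPM in WT. Set beside them, the 5 stefins had 18.4 and 18.1 times the cathepsin TPM in the Tet2 KO-labelled libraries, against 0.0319 and 0.0309 times in WT; this compares transcripts and says nothing of protein. No cathepsin call held when every gene in the table was tested (adjusted p = 0.116 to 0.25, with 1 higher and 6 lower at an unadjusted p under 0.05).

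**Figure D5:**
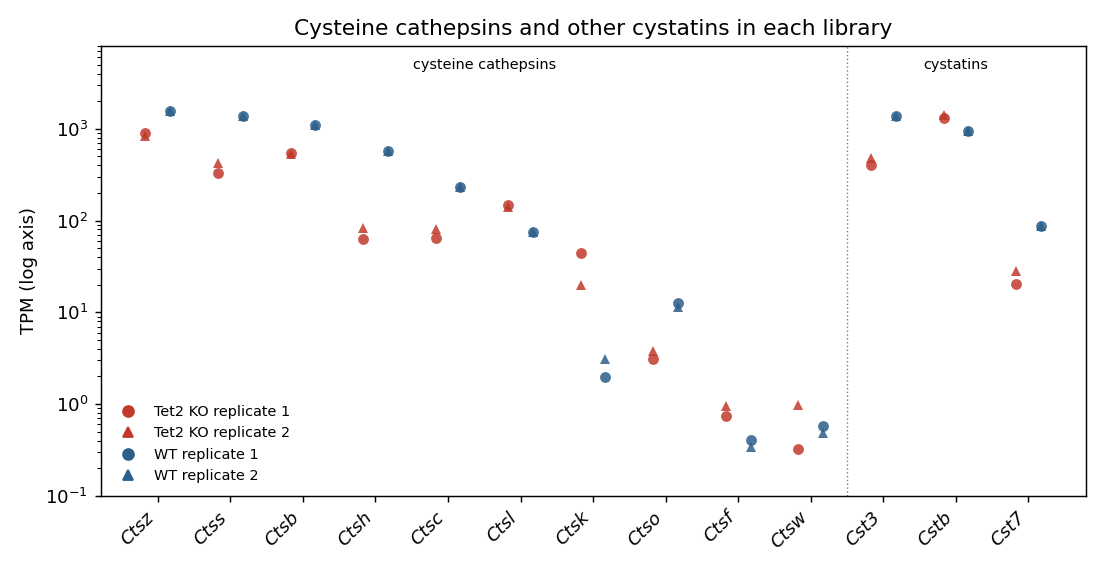
TPM (log axis) of the 10 cysteine cathepsins and of the 3 cystatins expressed outside the cluster in each library, with Tet2 KO libraries in red left of WT libraries in blue; each symbol is 1 library. Ctsz, Ctss, Ctsb, Ctsh, Ctsc, Ctso, Cst3 and Cst7 are lower in both libraries labelled Tet2 KO, while Ctsl and Ctsk are higher.

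Of the other inhibitors of the superfamily few were expressed. Of 16 cystatin genes outside it that have a value, 3 were tested, of which 0 rose and 2 fell in limma, with 0 higher at an unadjusted p under 0.05, beside 22.1% higher and 26.7% lower over all genes. Cst3, which encodes the secreted cystatin C, stood at 404 and 478 TPM in the Tet2 KO-labelled libraries, against 1371 and 1394 TPM in WT, and fell by 1.65 ± 0.26 (adjusted p = 7.61e-05). Cst7, which encodes cystatin F, an endolysosomal inhibitor that acts on cathepsin C, stood at 20.6 and 28.2 TPM in the Tet2 KO-labelled libraries, against 87.8 and 86.5 TPM in WT, and fell by 1.81 ± 0.22 (adjusted p = 1.05e-05). The groups did not overlap for either gene, but the share of all genes without overlap was not counted. Cstb, encoding stefin B, stood at 1296 and 1399 TPM in the Tet2 KO-labelled libraries, against 949 and 950 TPM in WT, and did not pass (log2 change 0.50 ± 0.28, adjusted p = 0.146). It passed, as higher, with both WT libraries as samples (adjusted p = 0.00887), with the replicate block (0.0181) and with ERCC scaling (0.0116). Its log2 change was 0.56 without Tet2 KO replicate 1 and 0.45 without Tet2 KO replicate 2. In WT, stefin B thus had 949 TPM against 154 TPM for the 5 stefin A genes together, and in the Tet2 KO-labelled libraries 1347 ± 72.6 TPM against 38646 ± 358 TPM. Of 10 tested genes for other leukocyte protease inhibitors, 7 were higher and 3 lower, of which Serpina3f had passed the filter only through WT, beside 22.1% higher and 26.7% lower over all genes. Serpinb1a, an inhibitor of neutrophil elastase, stood at 207 and 191 TPM in the Tet2 KO-labelled libraries, against 42.1 and 44.1 TPM in WT. Of 9 other lysosomal and granule proteases 6 were higher, of which Prss57 had passed the filter only through the Tet2 KO-labelled libraries, and 2 were lower. Among them were the aspartic protease gene Ctsd at 4927 and 3165 TPM in the Tet2 KO-labelled libraries, against 764 and 752 TPM in WT, and Lgmn, which encodes legumain, at 134 and 168 TPM in the Tet2 KO-labelled libraries, against 768 and 788 TPM in WT.

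The genes most like the cluster were sought by distance between log2(TPM + 1) profiles over the 4 libraries, each centred on its own mean. Members lay 0.16 to 0.33 from their sum. Of the other stefin genes, Gm5483 lay at 0.28, 2010005H15Rik at 0.53 and Gm5416 at 1.34. With these and all other predicted gene names left out, the nearest 10 genes, in order, were Retnla (distance 0.34), Pla2g7 (0.54), Cxcr2 (0.69), Tinagl1 (0.90), Padi4 (1.30), Pglyrp1 (1.35), Retnlg (1.44), Lcn2 (1.62), Pygl (1.65) and Perp (1.74). Retnla, Pla2g7 and Perp stood at or under 0.37 TPM in WT and passed the filter only through the Tet2 KO-labelled libraries. Their distance depends on the 1 TPM added before taking logs. Their ratios of mean TPM, Tet2 KO over WT, were 3650, 839 and 396, against 251 for the summed members. Pglyrp1, a granule protein that binds peptidoglycan, stood at 1794 and 1247 TPM in the Tet2 KO-labelled libraries, against 14.5 and 13.1 TPM in WT. Lcn2, an iron-sequestering granule protein, stood at 10393 and 9730 TPM in the Tet2 KO-labelled libraries, against 121 and 125 TPM in WT. With 4 libraries in 2 groups this distance mainly reflects the size of the difference between the groups.

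Markers of other cell types differed between the same libraries. Of 16 neutrophil markers 15 were higher in the Tet2 KO-labelled libraries and 0 lower, beside the 22.1% and 26.7% of all tested genes that were higher and lower. Without Ly6g, which passed the filter only through the Tet2 KO-labelled libraries, 14 of 15 were higher. The summed level of the 16 was 86842 to 108250 TPM in the Tet2 KO-labelled libraries, against 1724 to 1762 TPM in WT. Ly6g, a surface marker of mature mouse neutrophils, was low in all, at 7.01 and 5.22 TPM in the Tet2 KO-labelled libraries, against 0.34 and 0 TPM in WT. In bulk RNA, fewer or more cells of a type and less or more RNA per cell cannot be told apart, and the part of neutrophil content in the stefin values was not tested. Of 13 keratinocyte markers with a value, 4 were tested. Of these, Ivl, which encodes involucrin, and Perp had passed the filter only through the Tet2 KO-labelled libraries, so that they were bound to differ, and of Sfn and Epcam the first was higher. Ivl stood at 68.1 and 50.3 TPM in the Tet2 KO-labelled libraries, against 0.11 and 0.06 TPM in WT. Of the keratins and loricrin, Krt14, Krt1 and Lor were listed at 0 in each library and Krt5 at 0.05 TPM or less. Krt10 stood at 0.30 and 0.62 TPM in the Tet2 KO-labelled libraries, against 0.78 and 0.92 TPM in WT. The 13 summed to 219 and 226 TPM in the Tet2 KO-labelled libraries, against 23.2 and 24.2 TPM in WT. Of 9 mast cell and basophil markers, the 4 tested (Cpa3, Mcpt8, Cma1 and Gata2) had also passed the filter only through the Tet2 KO-labelled libraries. The 9 had sums of 46.5 and 54.9 TPM in the Tet2 KO-labelled libraries, against 1.35 and 1.54 TPM in WT; their part was not tested. T and B cell markers summed to 8.51 and 8.99 TPM in the Tet2 KO-labelled libraries, against 12.5 and 11.3 TPM in WT. Of the 3 that did not pass the filter through the Tet2 KO-labelled libraries alone, 0 were higher and 1, Cd79b, was lower.

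As to the libraries themselves, 11300 to 11467 genes reached 1 TPM in each. Of 10 genes that check the label of the cells, Itgam, Runx1t1, Nras, Tet2 and Kit were higher (Kit passed the filter only through the Tet2 KO-labelled libraries), Csf1r and Cd34 were lower, and Ptprc, Spi1 and Runx1 did not pass. Over all tested genes 22.1% were higher and 26.7% lower. The Tet2 call did not hold without the filter (adjusted p = 0.205) or under limma with neither trend nor robust estimation (adjusted p = 0.0713). Ptprc, which encodes CD45, stood at 396 to 413 TPM in the Tet2 KO-labelled libraries, against 292 to 296 TPM in WT. Runx1t1, whose sequence is part of AE9a, stood at 146 and 205 TPM in the Tet2 KO-labelled libraries, against 31.6 and 30.9 TPM in WT. The progenitor gene Cd34 stood at 14.7 and 15.8 TPM in the Tet2 KO-labelled libraries, against 60.6 and 60.7 TPM in WT. The targeted gene Tet2 was not lower where labelled deleted: it stood at 63.7 and 68.1 TPM in the Tet2 KO-labelled libraries, against 43.5 and 43.7 TPM in WT. Loss of an exon need not change a gene-level TPM, so it checks neither label, and every direction given here rests on the labels. Spike-in RNAs took 2.95% and 3.19% of TPM in the Tet2 KO-labelled libraries, against 4.66% and 4.62% in WT. Scaled to them, the median log2 change of all genes was 0.43 in place of -0.12, and that of the summed members 8.56 in place of 7.96.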

How the data were processed

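RNA abundance was deposited by the authors as TPM per gene for 4 libraries, 24497 mouse rows and 92 ERCC spike-in rows. Per the submitters' processing notes the tools were STAR and RSEM and the build mm10; no version or annotation is stated. RSEM divides reads that match several transcripts by an estimate, which matters for near-identical copies. TPM of such short transcripts can also depend on the length model.

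Members and lists were chosen with earlier results of these data known. Names and coordinates came from GENCODE M21 (23720 rows matched), promoters from RefSeq GRCm38.p6 (5 of 5 members matched by gene ID). Motif, identity and window counts used Python 3.11.15 and Biopython 1.88; proteins were translated from GENCODE coding sequences, aligned with BLOSUM62.

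TPM gives no depth. From low values of single-transcript genes, about 23.7 to 30.0 M reads per library were estimated with the longest transcript per gene, and 10.1 to 12.8 M with the median length; no counting interval is given. The WT libraries differed by 1.14 times the sampling variance (1033 genes, 8 beyond 5 SD), so their mean was counted as 1 sample; the Tet2 KO ratio was 6.09. Over the tenth of genes with most reads the ratios were 1.56 and 110.0. The error of the main fit therefore rests on the Tet2 KO pair. The fits without a Tet2 KO library took their error from the WT pair alone, and those with both WT libraries as samples from both pairs.

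Limma 3.58.1 in R 4.3.3 (trend, robust) was run on log2(TPM + 1) of genes with at least 1 TPM in at least 2 libraries, two-sided, and checked on simulated data. Fold changes on this scale understate low genes. P-values reflect only how these libraries vary, possibly for technical reasons. Genes were named by list membership, the 5 nearest on each side, up to 4 largest called changes each way, and the 10 nearest profiles; the examples Serpinb1a, Ctsd, Lgmn, Ngp, Ltf and Csf3r were picked from their lists after values were seen, and TTTAAA and the split of flanking genes at the interval were added after seeing the data, as were the monocyte and macrophage list and the check of genes that passed the filter through 1 group alone. Alternatives were a pseudocount of 0.1, no filter, other scalings, both WT libraries as samples, a replicate block, no trend or robust estimation, and each library left out.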

Additional observations from a re-analysis of the deposited data

How the results depend on the processing

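The log2 ratio of the 5 members stayed between 7.69 and 8.69 under every scaling, pseudocount and left-out library tried. For their sum, 7.96 as reported, it was 8.56 with ERCC scaling, 8.05 with median centring, 7.88 with 4 relatives added (chosen after seeing the data), and 7.94 to 7.98 without any 1 library. Over the whole table, 2629 higher and 3182 lower calls became 246 and 1798 without the filter on low values, 4942 and 1492 with ERCC scaling, so that the share of higher calls rose, and 2651 to 4321 and 3192 to 5674 with a library left out. With either Tet2 KO library left out, both WT libraries were taken as samples. The pairing by number was not given by the labels and same-numbered libraries did not deviate together (r = -0.0112 across genes); with both WT libraries as samples, 3520 were higher and 4517 lower, and with a replicate block 3495 and 4461. Cathepsin calls became 0 higher and 0 lower without the filter, 4 lower with ERCC scaling and 5 lower with median centring (Ctsz lost). They stayed at 2 and 6 with either WT library left out. Cystatins had 1 call higher (Cstb) with both WT libraries as samples, with the replicate block and with ERCC scaling. The log2 change of Cstb was 0.56 without Tet2 KO replicate 1 and 0.45 without Tet2 KO replicate 2, beside 0.50 in the main fit. Cystatins had 1 call lower without the filter, which was Cst6, at or under 0.08 TPM. Flanking genes, 7 higher and 7 lower, became 4 and 3 without the filter and 12 higher with ERCC scaling, and 7 to 11 higher with a library left out. Outside the member interval the 2 higher calls became 0 without the filter, with 3 lower. They became 4 with both WT libraries as samples, 4 with the replicate block and 7 with ERCC scaling, and stayed at 2 with either WT library left out. The raised counts of higher genes outside the interval include Slc15a2, which passed the filter only through the Tet2 KO-labelled libraries. Median identity of member proteins was 63.1% over the full alignment, in place of 68.6%. With 50 bases after the start included, 1 member promoter held the AP-1 letters in place of 0. Without the filter, Cst3, Cst7, Cd86, Dirc2, Fam162a, Fbxo40, Gm5416 and Tet2 were not called either. The cause of these changes was not tested.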
